A study of Mus musculus with 10 samples.

Results

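The 35 genes of glucose transport, glycolysis and glycogen were examined in hearts of male mice that had been exposed before birth to anti-Müllerian hormone (AMH). They were a fixed list of gene symbols that covers glucose carriers, hexokinases, the phosphofructokinase step, lower glycolysis, lactate and pyruvate handling, glycogen synthesis and breakdown, and the pentose phosphate branch. All 35 were found among the 55335 Ensembl genes of the deposited table, and 33 of them reached a mean of 1 FPKM (fragments per kilobase of transcript, scaled to the depth of the sample) and were tested. Control hearts came from 5 wild-type male offspring of dams given phosphate-buffered saline, the prenatal vehicle. PAMH hearts came from 5 wild-type male offspring of dams given AMH while pregnant (prenatal AMH, PAMH), an exposure with which polycystic ovary syndrome is modelled in mice. All samples are bulk heart tissue, the labels give no age, dam, litter or collection time, and p-values thus rest on the spread among these hearts alone, which can be technical or shared within litters.

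As background, glucose enters a cardiomyocyte mainly through the insulin-responsive carrier Slc2a4 (GLUT4), with a smaller contribution from Slc2a1 (GLUT1). Hexokinase traps it as glucose 6-phosphate, which can be stored as glycogen, oxidised in the pentose phosphate branch or split by glycolysis to pyruvate. Most steps of glycolysis have several enzymes encoded by related genes: a muscle form (Pfkm, Pgam2, Eno3, Pygm) and forms found in many tissues (Pfkl, Pfkp, Pgam1, Eno1, Pygb). The adult heart burns mostly fatty acids and lactate, while the fetal heart relies more on glycolysis, and Hk1 and Slc2a1 are the prominent fetal forms of the hexokinase and the glucose carrier.

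Cardiomyocyte markers were abundant in every sample, and shares of cell types were not estimated. The 8 cardiomyocyte markers (Myh6, Myl2, Tnnt2, Tnni3, Actc1, Mybpc3, Ttn and Ryr2) summed to 8486 to 10864 FPKM in control and 7464 to 12834 FPKM in PAMH hearts. Markers of skeletal muscle, which uses the same muscle enzyme forms, summed to at most 2.57 FPKM over 9 genes in any sample. PAMH replicate 4 differed from the rest: its hemoglobin genes summed to 859 FPKM, where the other 9 samples had 97.1 to 436 FPKM, and it had the fewest genes above 0 (16113, against 18037 to 21097). The next fewest, 18037, were in PAMH replicate 5. From the pile-up of low values in genes with 1 annotated transcript, the depth was roughly 18800000 to 26600000 fragments in control and 15800000 to 20100000 fragments in PAMH samples. The pile-up was weak in PAMH replicates 4 and 5. Of these genes 1.38% and 3.71% lay at the commonest low value, against 6.15% to 8.19% in the other samples. An alternative below leaves out both replicates.

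PAMH hearts had more RNA of 4 of the 33 tested members, Pgam1, Hk1, Gbe1 and Pfkp, and no member passed the test in the other direction (limma on log2(FPKM + 1), adjusted p under 0.05 over all 9439 tested genes). The remaining 29 did not pass. Over all tested genes 6.19% were called, 4.95% higher and 1.24% lower, and the 4 of 33 members are 12.1%, in a list chosen with earlier results of these data known. Of the 33 members 27 (81.8%) had a positive log2 fold change, where 67.3% of all tested genes did, and the median log2 fold change was 0.13 against 0.07 for all tested genes. Most members are abundant, and among genes averaging at least 5 FPKM the members stood no higher than the background share of calls: 3 of 27 members (11.1%) were called, all higher, where 13.5% of 3893 genes were called and 11.6% were higher, and the median was 0.13 for members and 0.11 for all of these genes. Of the members 85.2% were positive there, and of all these genes 75.5%. With quantile normalization the member median was -0.003, and 16 of 33 were positive. The split of all calls also moved with the scaling, from 467 higher and 117 lower genes to 218 and 212 under median ratio scaling and 234 and 246 with quantile normalization. At an unadjusted p under 0.05 there were 8 higher members and 1 lower, 27.3% of the list, against 24.0% of all tested genes (19.6% higher and 4.34% lower). Leaving out PAMH replicate 3 raised the count of called members to 7, all higher (11.9% of all genes were then called). Leaving out control replicate 1, 3, 4 or 5 or PAMH replicate 1, 2 or 5 left 2 called members, while 2.89% to 4.80% of all genes were called.

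**Figure D1:**
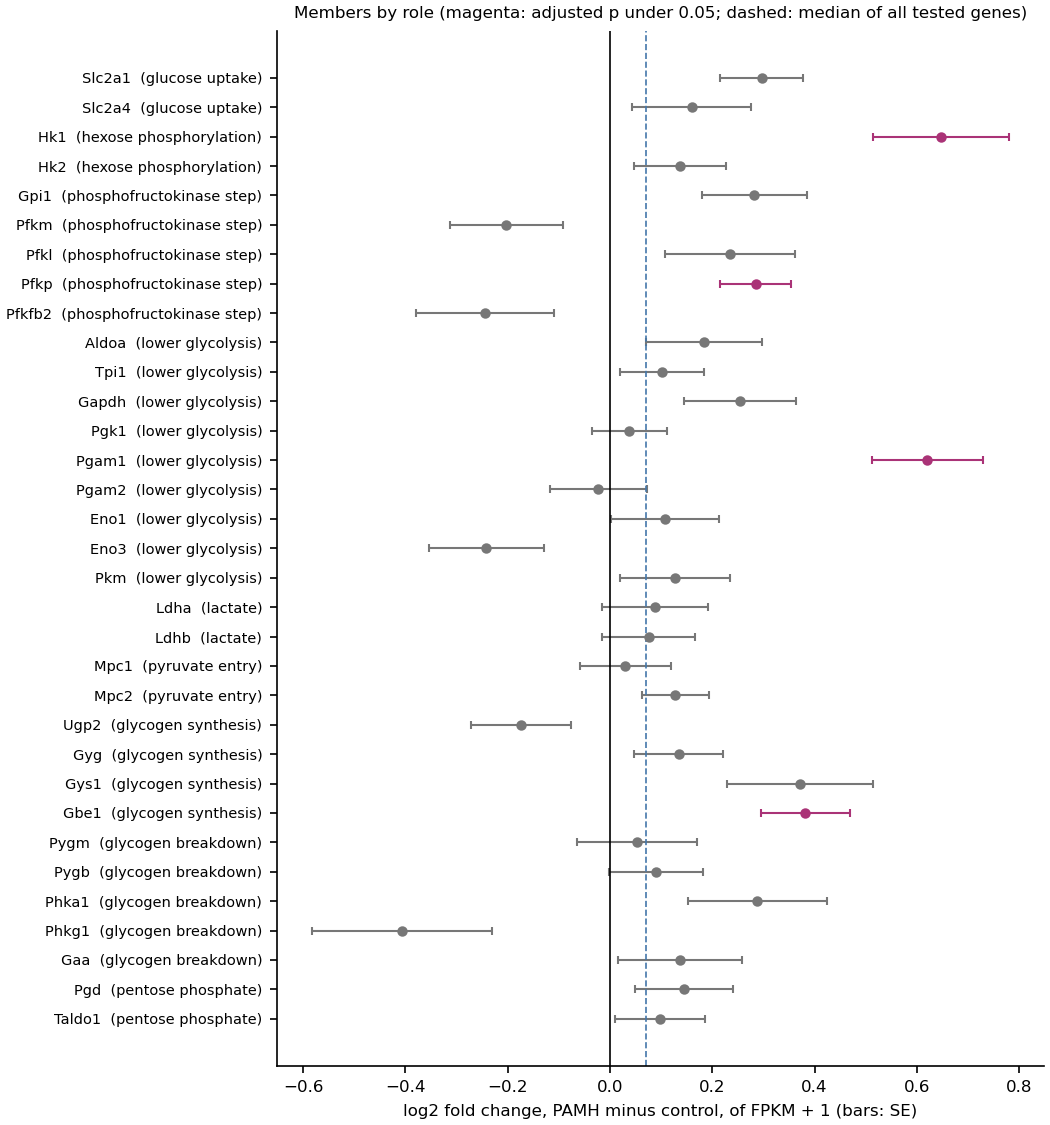
Log2 fold change of each tested member between PAMH and control hearts on the log2(FPKM + 1) scale, with the limma standard error as bars and the members ordered by role. Magenta marks Hk1, Pfkp, Pgam1 and Gbe1, and the dashed line is the median of all tested genes at 0.07.

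The largest member changes were in hexokinase 1 and phosphoglycerate mutase 1. Pgam1 encodes the broadly expressed form of the enzyme that moves the phosphate of 3-phosphoglycerate to the neighbouring carbon (chromosome 19, 41911923 to 41918660, plus strand, build GRCm38). Its FPKM were 14.8, 17.0, 15.2, 15.1 and 17.1 in control replicates 1 to 5 and 24.7, 27.2, 18.6, 29.9 and 25.2 in PAMH replicates 1 to 5. Every PAMH heart lay above every control heart, and PAMH replicate 3 was the lowest of its group. Pgam1 rose from 15.8 ± 1.13 to 25.1 ± 4.15 FPKM (SD, n = 5 per group; a log2 change of 0.62 with SE 0.11, limma adjusted p = 0.00818). This call held in all 21 alternative settings tried, with log2 fold changes of 0.49 to 0.72.

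Hk1, which phosphorylates glucose while bound to mitochondria (chromosome 10, 62268855 to 62379908, minus strand), had 10.3, 9.22, 10.5, 8.04 and 9.66 FPKM in control hearts. The PAMH hearts had 14.7, 15.5, 10.9, 20.1 and 17.4 FPKM. The groups did not overlap, although PAMH replicate 3 was only just above the highest control. Hk1 rose from 9.55 ± 0.990 to 15.7 ± 3.401 FPKM (SD, n = 5 per group; a log2 change of 0.65 with SE 0.13, limma adjusted p = 0.0159). Its highest value was in PAMH replicate 4, the sample with the highest hemoglobin sum, and without that sample the log2 fold change was 0.56 (limma adjusted p = 0.0194; range over all alternatives 0.00213 to 0.0647). Hk1 lost its call in 3 of 21 alternatives: with PAMH replicates 4 and 5 both left out (log2 fold change 0.47, limma adjusted p = 0.0561) and, at an unchanged log2 fold change, without a filter (limma adjusted p = 0.0647) and with the replicate number as a block (limma adjusted p = 0.0637).

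Gbe1, the branching enzyme that gives glycogen its tree-like structure (chromosome 16, 70313949 to 70569716, plus strand), had 5.81, 5.66, 5.48, 5.56 and 5.30 FPKM in control hearts. In PAMH hearts the values were 8.71, 8.16, 6.05, 7.11 and 7.98 FPKM. The controls lay close together, and PAMH replicate 3 was again the PAMH heart nearest to them. Gbe1 rose from 5.56 ± 0.191 to 7.60 ± 1.04 FPKM (SD, n = 5 per group; a log2 change of 0.38 with SE 0.09, limma adjusted p = 0.0243). The call held in 11 of 21 alternatives. It ended without a filter, with the replicate number as a block, without PAMH replicates 4 and 5, and when control replicate 1, 3, 4 or 5 or PAMH replicate 1, 2 or 5 was left out, where the limma adjusted p was between 0.0530 and 0.0676 and the log2 fold change between 0.34 and 0.40.

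Pfkp, the platelet-type subunit of 6-phosphofructo-1-kinase (chromosome 13, 6579768 to 6648777, minus strand), was a minor transcript, with 2.23, 2.46, 2.04, 2.11 and 2.24 FPKM in control hearts. The PAMH hearts had 2.73, 2.92, 2.84, 3.31 and 2.82 FPKM, all above the highest control. Pfkp rose from 2.22 ± 0.162 to 2.92 ± 0.225 FPKM (SD, n = 5 per group; a log2 change of 0.28 with SE 0.07, limma adjusted p = 0.0323). Its call was the least stable of the 4: it held in 8 of 20 alternatives, and ended under median ratio scaling and quantile normalization, without a filter, with the replicate number as a block, without PAMH replicates 4 and 5, and when control replicate 1, 3, 4 or 5 or PAMH replicate 1, 2 or 5 was left out, with log2 fold changes of 0.21 to 0.30 in the scalings and omissions named. Exons of Pfkp overlap those of Pitrm1 on the opposite strand, a gene with a mean of 6.95 FPKM, and the strand setting of the counting is not given in the sources used here, so reads of these genes may have been shared.

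**Figure D2:**
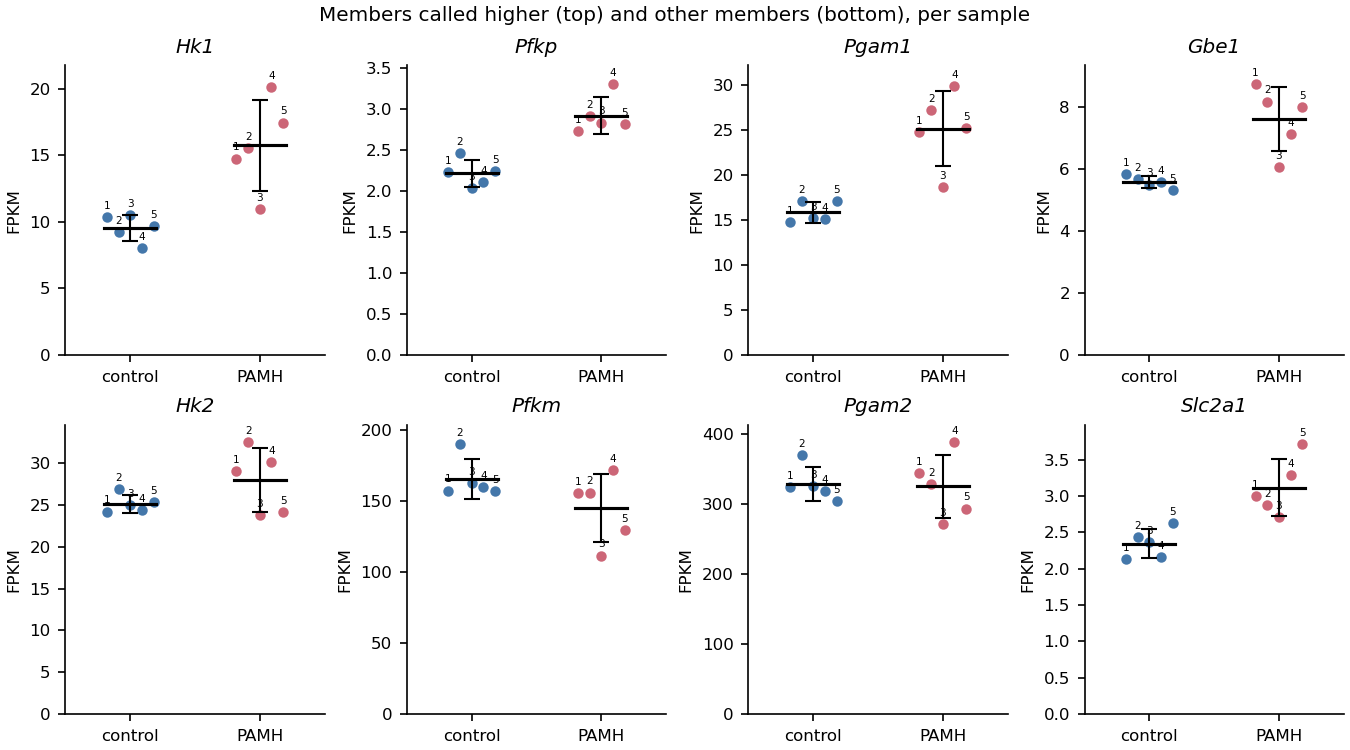
FPKM of 8 members in each sample, labelled by replicate number, with the mean and SD of each group of 5 as lines and bars. In Hk1, Pfkp, Pgam1, Gbe1 and Slc2a1 every PAMH point lies above every control point, while Hk2, Pfkm and Pgam2 overlap.

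The glucose carrier Slc2a1 also had no overlap between the groups but narrowly missed the threshold. This carrier of basal glucose uptake (chromosome 4, 119108711 to 119137983) had 2.14, 2.44, 2.36, 2.16 and 2.62 FPKM in control and 3.002, 2.87, 2.71, 3.29 and 3.71 FPKM in PAMH hearts, or 2.34 ± 0.202 and 3.12 ± 0.396 FPKM (SD, n = 5 per group; a log2 change of 0.30 with SE 0.08, limma adjusted p = 0.0504). It passed in 4 of 20 alternatives, among them without PAMH replicate 3 (limma adjusted p = 0.0257). Non-overlap with PAMH above control was thus seen in 5 of 33 members (15.2%), where 6.74% of all tested genes showed it, and no member had PAMH below control (1.71% of all tested genes). These shares were not compared at matched abundance, on which the share of calls depended. The insulin-responsive carrier Slc2a4 was more abundant than Slc2a1 and overlapped, at 50.9 to 64.3 FPKM in control and 47.4 to 77.5 FPKM in PAMH hearts (limma adjusted p = 0.431).

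The enzyme forms of the same step did not always move alike. Within each sample the log2 ratio of related members was compared between the groups for 10 ratios (log2 of FPKM + 1, 2-sided exact permutation test, Benjamini-Hochberg adjustment over the 10). Such a ratio hardly depends on how a sample is scaled. In 5 of the 10 every PAMH heart had a higher ratio than every control heart: Pgam1/Pgam2, Hk1/Hk2, Pfkp/Pfkm, Pfkl/Pfkm and Eno1/Eno3. Each of these had an exact p of 0.00794, the smallest that 5 against 5 samples allow, and an adjusted p of 0.0159. Pgam1, Hk1 and Pfkp were without overlap as single genes too, so their ratios partly restate those calls. For Pgam1 the log2 change was 0.62 and that of its ratio 0.64. The share of other gene pairs without overlap was not computed. Among single tested genes 6.74% had every PAMH value above every control value, and 1.71% had every one below. These single-gene shares are not a background for the ratios, because sample scaling acts on single genes but hardly on ratios. All 5 ratios stayed called when any single sample was left out, and when PAMH replicates 4 and 5 were left out together 4 of them did, the exception being Hk1/Hk2 (difference 0.31, exact permutation adjusted p = 0.0714).

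**Figure D3:**
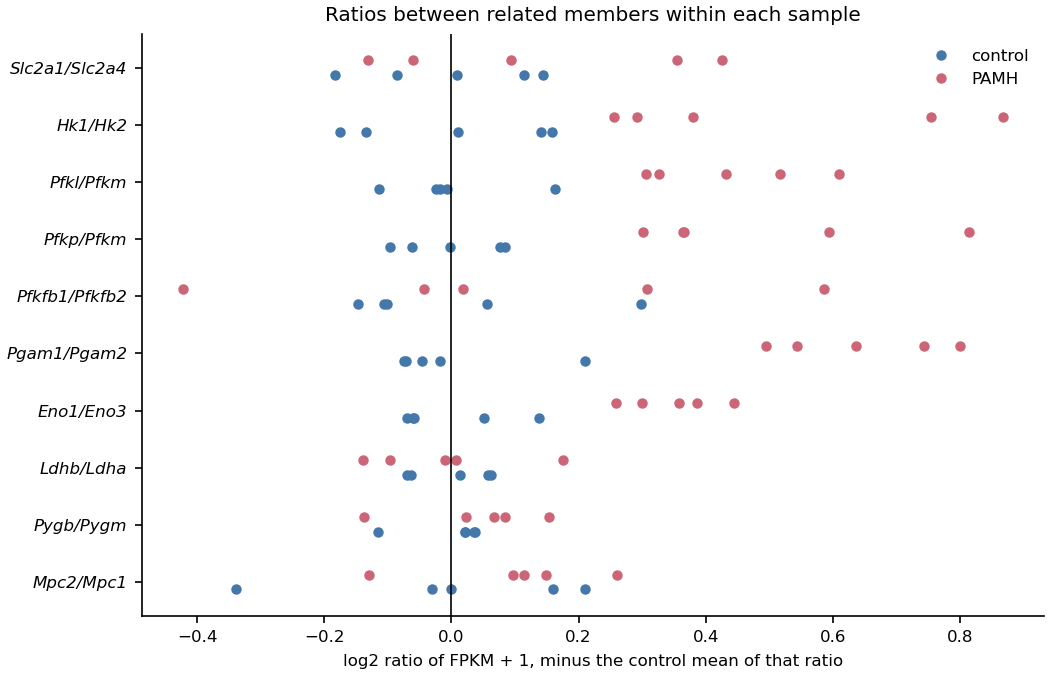
Log2 ratio of FPKM + 1 between related members in each sample, minus the control mean of that ratio; each point is a sample. In Hk1/Hk2, Pfkl/Pfkm, Pfkp/Pfkm, Pgam1/Pgam2 and Eno1/Eno3 the PAMH points lie to the right of all control points, and the other 5 ratios overlap.

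Pgam2, the muscle phosphoglycerate mutase, remained by far the major form. Pgam1 made up 4.35%, 4.40%, 4.45%, 4.53% and 5.30% of the summed FPKM of Pgam1 and Pgam2 in control replicates 1 to 5 and 6.69%, 7.64%, 6.41%, 7.14% and 7.90% in PAMH replicates 1 to 5. The log2 ratio was higher by 0.64 in PAMH hearts. Pgam2 itself had 328.8 ± 24.8 and 325.5 ± 45.4 FPKM (SD, n = 5 per group; a log2 change of -0.02 with SE 0.09, limma adjusted p = 0.907), with 324, 370.6, 326, 318 and 304.9 FPKM in control and 345, 328, 272, 388 and 294 FPKM in PAMH hearts, which overlap, and its sign turned positive in 4 of 21 alternatives.

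Hexokinase shifted in the same way between its forms. Hk1 was 27.5% ± 2.32 of the hexokinase FPKM (Hk1 plus Hk2) in control hearts (SD, n = 5) and 35.9% ± 4.79 with PAMH (SD, n = 5), with a log2 ratio difference of 0.51. The PAMH shares were 33.6%, 32.3%, 31.5%, 40.1% and 42.0%, so that replicates 4 and 5 were the highest. Hk2, the insulin-regulated form of adult muscle and heart, had 25.1 ± 1.06 and 27.9 ± 3.83 FPKM (log2 fold change 0.14, SE 0.09, limma adjusted p = 0.381).

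At the phosphofructokinase step the muscle subunit Pfkm had 157.5, 190.5, 163, 160 and 157 FPKM in control and 155.6, 156.2, 112, 172 and 130 FPKM in PAMH hearts. The groups overlapped, with every PAMH heart but replicate 4 below all controls, and the log2 fold change of -0.20 (SE 0.11) did not pass (limma adjusted p = 0.287). The liver-type subunit Pfkl had 8.74 to 11.6 and 9.11 to 16.5 FPKM (log2 fold change 0.24, SE 0.13, limma adjusted p = 0.282). Relative to Pfkm, Pfkl rose from 5.74% ± 0.419 to 7.74% ± 0.704 of their sum and Pfkp from 1.32% ± 0.0760 to 2.01% ± 0.298 of its sum with Pfkm (SD, n = 5 per group), with log2 ratio differences of 0.44 and 0.49. These ratios share Pfkm and are not independent.

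Enolase followed, although neither gene passed the test by itself. Eno3, the muscle enolase, had 434.7, 521.2, 435.6, 417 and 408 FPKM in control and 409.0, 378, 295, 463 and 344 FPKM in PAMH hearts (log2 fold change -0.24, SE 0.11, limma adjusted p = 0.217), and was called lower with quantile normalization (log2 fold change -0.38, limma adjusted p = 0.00725; range over all alternatives up to 0.457). Eno1 had 10.6 ± 0.919 and 11.6 ± 1.96 FPKM (limma adjusted p = 0.567). Their groups overlapped in each gene, yet Eno1 as a share of both went from 2.35% ± 0.151 to 2.99% ± 0.143 (SD, n = 5 per group) without overlap, and the log2 ratio was higher by 0.35.

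In the other 5 ratios the groups overlapped. The difference in log2 ratio was 0.14 for Slc2a1/Slc2a4, 0.09 for Pfkfb1/Pfkfb2, -0.01 for the heart and muscle lactate dehydrogenase genes Ldhb/Ldha, 0.04 for the brain and muscle glycogen phosphorylase genes Pygb/Pygm and 0.10 for the pyruvate carrier subunits Mpc2/Mpc1 (exact permutation adjusted p between 0.516 and 0.881). The ratio of Ldhb to Ldha was tight, with Ldhb at 80.7% ± 0.690 of their sum in control hearts (SD, n = 5) and 80.6% ± 1.31 with PAMH (SD, n = 5), and that of Pygb to Pygm likewise, with Pygb at 37.1% ± 1.04 and 37.8% ± 1.76.

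The broadly expressed enzyme forms are also made by the other cells of the heart, and in bulk tissue fewer cells of a type and less RNA per cell cannot be told apart. Summed markers overlapped between the groups for fibroblasts (6 genes, 76.6 to 88.8 FPKM in control and 68.6 to 90.7 in PAMH hearts), endothelium (5 genes, 59.6 to 70.7 and 52.4 to 64.2 FPKM) and smooth muscle with pericytes (5 genes, 50.8 to 78.7 and 45.1 to 77.1 FPKM). The 5 macrophage markers summed to 48.0 to 55.7 FPKM in control and 55.6 to 67.1 FPKM in PAMH hearts, which overlap narrowly, with 1 of 5 called higher. Most of this sum was C1qa, at 33.5 to 40.1 and 38.4 to 50.6 FPKM. Cd68 was without overlap (2.86 to 3.84 and 4.14 to 6.15 FPKM). Adgre1 (2.86 to 4.17 and 2.54 to 3.75 FPKM), Csf1r (4.99 to 6.09 and 4.51 to 6.67 FPKM) and Mrc1 (2.76 to 4.18 and 2.24 to 4.67 FPKM) overlapped. Epicardial and mesothelial markers (4 genes) summed to 0.404 to 1.04 and 2.19 to 5.67 FPKM, without overlap. These are low values, and only 1 of the 4 genes, Upk3b, reached the filter of 1 FPKM. It was called higher. Upk3b, Msln and Krt19 were each without overlap, while Wt1 overlapped (0.193 to 0.327 and 0.135 to 0.676 FPKM). Erythroid markers (6 genes) summed to 112 to 437 and 97.4 to 863 FPKM, adipocyte markers (4 genes, Lep at 0) to at most 0.516 FPKM and neuronal and Schwann cell markers (4 genes, Th and Snap25 at 0) to at most 0.822 FPKM. The part of the macrophage, epicardial and erythroid marker differences in the ratios was not tested.

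The promoters of the called members, and of Pgam2 and Hk2, are shown because several of the shifted ratios set a gene with many CpG sites at its start against a gene with few. The sequences are the 250 bases before the annotated start, from RefSeq on build GRCm38.p6, 5′ to 3′ in the direction of the gene, with every CpG in capitals.
Pgam1, chr19:41911621-41911870, plus strand: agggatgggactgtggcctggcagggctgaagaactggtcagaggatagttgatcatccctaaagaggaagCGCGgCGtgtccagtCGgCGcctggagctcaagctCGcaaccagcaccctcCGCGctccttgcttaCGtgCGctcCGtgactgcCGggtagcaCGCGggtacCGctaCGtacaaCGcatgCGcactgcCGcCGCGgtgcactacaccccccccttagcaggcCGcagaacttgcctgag
Pgam2, chr11:5803797-5804046, minus strand: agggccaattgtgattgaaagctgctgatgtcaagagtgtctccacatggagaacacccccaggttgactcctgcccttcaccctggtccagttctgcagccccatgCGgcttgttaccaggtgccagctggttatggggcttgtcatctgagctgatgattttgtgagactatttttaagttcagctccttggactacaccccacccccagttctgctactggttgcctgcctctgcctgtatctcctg
Hk1, chr10:62340422-62340671, minus strand: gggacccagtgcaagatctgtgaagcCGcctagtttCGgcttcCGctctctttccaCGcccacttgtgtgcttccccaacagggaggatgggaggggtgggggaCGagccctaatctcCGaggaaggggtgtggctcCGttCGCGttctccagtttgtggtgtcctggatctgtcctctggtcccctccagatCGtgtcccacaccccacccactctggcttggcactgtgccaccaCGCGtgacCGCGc
Hk1, chr10:62379909-62380158, minus strand: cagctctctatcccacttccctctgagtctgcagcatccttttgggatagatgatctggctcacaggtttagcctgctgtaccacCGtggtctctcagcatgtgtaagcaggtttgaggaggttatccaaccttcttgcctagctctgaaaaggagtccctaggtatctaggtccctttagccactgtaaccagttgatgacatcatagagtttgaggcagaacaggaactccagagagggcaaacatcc
Hk2, chr6:82774455-82774704, minus strand: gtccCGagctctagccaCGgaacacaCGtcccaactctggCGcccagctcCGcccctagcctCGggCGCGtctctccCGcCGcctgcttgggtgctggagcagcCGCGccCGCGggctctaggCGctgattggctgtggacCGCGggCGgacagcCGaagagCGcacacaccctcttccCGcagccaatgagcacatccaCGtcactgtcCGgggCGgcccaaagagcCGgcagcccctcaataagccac
Pfkp, chr13:6648772-6649021, minus strand: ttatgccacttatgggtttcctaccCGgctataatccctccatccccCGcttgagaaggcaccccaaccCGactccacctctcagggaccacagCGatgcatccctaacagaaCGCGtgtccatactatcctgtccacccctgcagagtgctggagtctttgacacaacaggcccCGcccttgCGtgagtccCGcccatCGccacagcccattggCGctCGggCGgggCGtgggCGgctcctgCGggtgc
Gbe1, chr16:70313699-70313948, plus strand: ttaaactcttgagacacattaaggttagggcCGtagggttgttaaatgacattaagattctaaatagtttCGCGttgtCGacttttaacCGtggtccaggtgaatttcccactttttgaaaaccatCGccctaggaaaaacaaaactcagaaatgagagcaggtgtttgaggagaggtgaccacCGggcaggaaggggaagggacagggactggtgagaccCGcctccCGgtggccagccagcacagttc
Pgam1 had 22 CpG sites in this window and Pgam2 had 1, where the median over 32851 promoters was 6 (quartiles 2 and 16). Pfkp had 16, Pfkl had 13 and the 4 annotated starts of Pfkm had 2, 6, 10 and 3. The 3 starts of Eno1 had 9, 21 and 19 and Eno3 had 3. Hexokinase went the other way, with 25 at Hk2 and 14 and 1 at the annotated starts of Hk1. Pygb (17) and Pygm (4) differed like the mutases although their ratio did not pass the test. Gbe1 had 9. ACGTG, a common form of the core of hypoxia response elements, was searched on both strands and can lie within the E-box CACGTG. Other forms of that core, such as GCGTG, were not searched. ACGTG occurred once at Pgam1 and in 2 places at Hk2, and at none of the other promoters printed. Pfkm, the partner of Pfkp, is not printed and held it in its windows starting at 98092339 and 98108221 on chromosome 15. Among the 52 promoter windows of 34 members 32.7% held it, against 16.6% of all promoters, and 7.69% held CACGTG, against 6.02%. The GC box GGGCGG was present in 48.1% of member windows and 32.7% of all, with 4 copies at Pfkp and 3 at Hk2, and TATAAA in 1.92% and 12.4%.

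The 5 most abundant members were Ldhb, Eno3, Aldoa, Gapdh and Pgam2, and none of these passed. Ldhb, which encodes the lactate dehydrogenase subunit of the heart, had the highest mean of the list, with 491.6, 547.5, 454, 436 and 441 FPKM in control and 495.1, 525.0, 417, 569 and 496 FPKM in PAMH hearts (log2 fold change 0.08, SE 0.09, limma adjusted p = 0.651). The aldolase gene Aldoa had 326, 406, 347, 302 and 344 FPKM in control and 419, 388, 313, 488 and 365 FPKM in PAMH hearts (log2 fold change 0.18, SE 0.11, limma adjusted p = 0.347). Gapdh, glyceraldehyde 3-phosphate dehydrogenase, had 293, 335, 337, 267 and 275 FPKM in control and 425, 367, 278, 371 and 365 FPKM in PAMH hearts. All PAMH hearts but replicate 3 lay above all controls, and the log2 fold change was 0.25 (SE 0.11, limma adjusted p = 0.181). Without PAMH replicate 3 Gapdh passed (log2 fold change 0.34, limma adjusted p = 0.0272; range over all alternatives up to 0.401). Tpi1 (triose phosphate isomerase), Pgk1 (phosphoglycerate kinase), Pkm (pyruvate kinase) and Ldha had log2 fold changes of 0.10, 0.04, 0.13 and 0.09 and overlapping groups. Gpi1, which turns glucose 6-phosphate into fructose 6-phosphate, had 42.0, 54.1, 44.6, 43.5 and 43.9 FPKM in control and 58.2, 57.5, 43.3, 61.8 and 58.6 FPKM in PAMH hearts (log2 fold change 0.28, SE 0.10, limma adjusted p = 0.118), and passed without PAMH replicate 3 (log2 fold change 0.37, limma adjusted p = 0.0143; range over all alternatives up to 0.333).

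Several of these genes have near-identical processed copies in the genome, to which the deposited table also assigns FPKM. For Gapdh, 207 other annotated genes had a transcript aligned over at least 200 bases at 90% identity or more. Of these 13 averaged at least 1 FPKM, among them Peli2, a protein-coding gene at 90.9% identity with a log2 fold change of -0.21. Of the 13, 5 passed the test, all higher in PAMH hearts, where 4.95% of all tested genes were called higher. Copies may share reads, so these calls may not be independent. The sum of all 207, 338 ± 32.0 FPKM in control hearts and 419.6 ± 37.5 FPKM with PAMH (SD, n = 5 per group), was as large as the value of Gapdh itself, 301.5 ± 32.9 and 361 ± 52.5 FPKM. Gapdh and the 207 together gave 639.0 ± 61.6 and 781 ± 89.2 FPKM, a log2 difference of 0.29. Pgam1 had a copy, Pgam1-ps2, whose transcript matched over 765 bases at 100% identity. Pgam1-ps2 rose from 10.1 ± 0.647 to 14.8 ± 2.15 FPKM (log2 fold change 0.50, limma adjusted p = 0.0121), and Pgam1 with its copies went from 26.0 ± 1.59 to 39.9 ± 5.66 FPKM, again without overlap (24.7 to 28.1 and 30.6 to 44.8 FPKM). With copies added to Pgam1 and Eno1 the same number of ratios, 5, was called. The copies of Pgk1 and Eno1 summed to 36.2% and 50.8% of their parent gene, and Mpc1-ps, at 146 FPKM, exceeded Mpc1 at 71.1 FPKM. How reads with several matches were divided is not given in the sources used here, so levels of these 5 genes are uncertain.

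**Figure D4:**
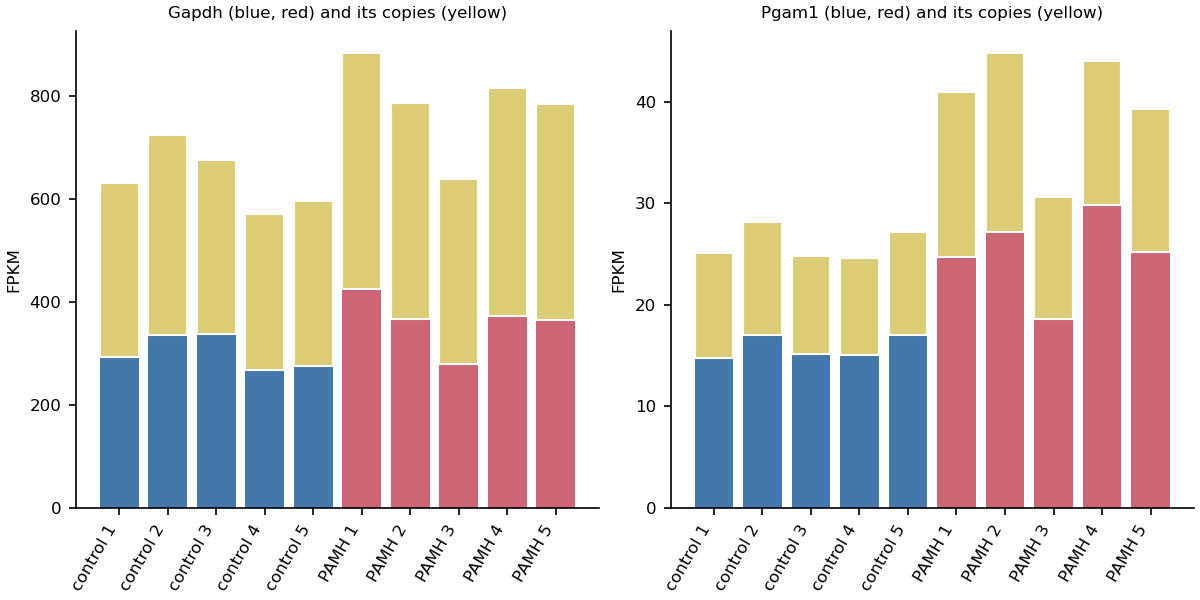
FPKM of Gapdh and Pgam1 in each sample (blue in control, red in PAMH) with the summed FPKM of their near-identical copies stacked on top in yellow. The copies of Gapdh add as much as the gene itself, and the total of Pgam1 separates the groups at 24.7 to 28.1 against 30.6 to 44.8 FPKM.

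Apart from Gbe1, the glycogen members did not pass. Gys1, the muscle glycogen synthase, had 13.9, 16.3, 10.5, 10.9 and 13.5 FPKM in control and 15.9, 18.6, 14.3, 22.7 and 14.5 FPKM in PAMH hearts (log2 fold change 0.37, SE 0.14, limma adjusted p = 0.133), and its exons overlap those of Ruvbl2 on the other strand. Gyg, the glycogenin primer, and Ugp2, which makes UDP-glucose, had log2 fold changes of 0.13 and -0.17. On the breakdown side Pygm had 199.6 ± 30.1 and 207 ± 30.1 FPKM and Pygb 117 ± 11.8 and 125 ± 13.6 FPKM (SD, n = 5 per group). The phosphorylase kinase subunits had log2 fold changes of opposite sign. Phka1, the muscle regulatory subunit, had 4.31, 3.82, 3.49, 4.13 and 3.88 FPKM in control and 6.34, 6.28, 4.90, 3.17 and 4.96 FPKM in PAMH hearts (log2 fold change 0.29, SE 0.14, limma adjusted p = 0.221). PAMH replicate 4 was the lowest of all 10 samples and the other 4 PAMH hearts were above every control, and without that sample Phka1 passed, as it did with sample weights and without PAMH replicates 4 and 5 (log2 fold change 0.42 without replicate 4, limma adjusted p = 0.0185; range over all alternatives up to 0.464). Phkg1, the muscle catalytic subunit, had 4.40, 1.79, 2.63, 2.17 and 2.34 FPKM in control and 2.29, 2.22, 1.21, 1.79 and 1.16 FPKM in PAMH hearts (log2 fold change -0.41, SE 0.18, limma adjusted p = 0.186), and its exons overlap those of Sumf2. Gaa, the lysosomal glucosidase that clears glycogen from lysosomes, had a log2 fold change of 0.14.

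The remaining members also overlapped between the groups. Pfkfb2, the heart form of the enzyme that makes fructose 2,6-bisphosphate and thereby stimulates phosphofructokinase, had 5.21 ± 0.934 and 4.26 ± 0.900 FPKM (SD, n = 5 per group; a log2 change of -0.24 with SE 0.14, limma adjusted p = 0.295). Its relative Pfkfb1 was below the filter at 0.770 to 1.11 and 0.337 to 1.16 FPKM, and so was Slc16a3, the lactate exporter of glycolytic cells, at 0.142 to 0.291 and 0.167 to 0.521 FPKM. Neither was tested. Mpc1 and Mpc2, the subunits that carry pyruvate into mitochondria, had log2 fold changes of 0.03 and 0.13, and Pgd and Taldo1 of the pentose phosphate branch had 0.14 and 0.10, with limma adjusted p between 0.261 and 0.870.

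Many members had their highest or lowest values in the same hearts. Control replicate 2 had the highest control value for 22 of the 33 members (66.7%), where it was the highest control for 30.4% of all tested genes. PAMH replicate 3 had the lowest PAMH value for 27 members (81.8%, against 33.7% of all tested genes), and PAMH replicate 4 the highest for 21 (63.6%, against 34.9%). Measured from the control means, the median member stood at 0.18 on the log2 scale in control replicate 2 and at -0.05 to -0.01 in the other controls. In PAMH replicates 1 to 5 it stood at 0.20, 0.18, -0.11, 0.27 and 0.08. The shares of the mitochondrial genome in the FPKM sum ran in the opposite order in PAMH hearts, with the highest, 56.6%, in replicate 3 and the lowest, 51.5%, in replicate 4. The share also differed between the groups: it was 55.3% to 56.8% in control hearts and 53.6%, 54.5%, 51.5% and 54.6% in PAMH replicates 1, 2, 4 and 5, each below every control. The part of this share in the member levels was not tested beyond leaving the mitochondrial genome out, after which the same number of members, 4, was called.

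**Figure D5:**
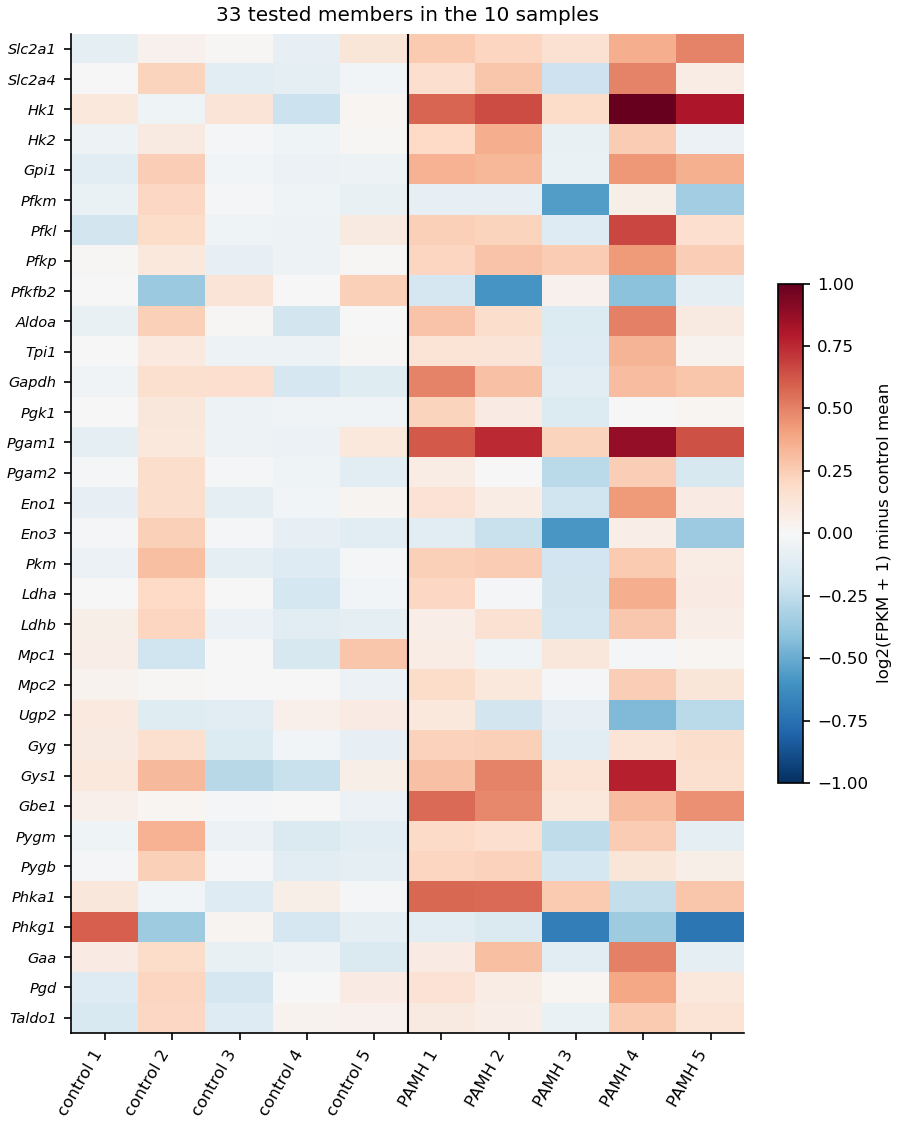
Log2(FPKM + 1) of the 33 tested members in each sample, minus the mean of the 5 controls, in colour from -1 (blue) to 1 (red). Control replicate 2 and PAMH replicate 4 are redder than the rest of their groups over most members, PAMH replicate 3 is bluer, and Hk1 and Pgam1 are red in all 5 PAMH samples.

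A further 66 genes of the same pathways were read from the same fit. Of these 45 were tested, 6 were higher and none lower in PAMH hearts, 39 did not pass, and the median log2 fold change was 0.08. The 6 genes are 13.3% of those tested, against 4.95% of all tested genes called higher. That background share depends on abundance and was 11.6% among all genes averaging at least 5 FPKM. The 45 genes were not compared at matched abundance. Gpd1, the cytosolic glycerol 3-phosphate dehydrogenase that draws a glycolytic intermediate toward lipid synthesis and electron shuttling, rose from 14.1 ± 1.29 to 25.7 ± 3.01 FPKM (SD, n = 5 per group; a log2 change of 0.82 with SE 0.09, limma adjusted p = 0.000796), more than any member of the list. Ppp1r3b, a targeting subunit that brings protein phosphatase 1 to glycogen and favours its synthesis, rose from 1.36 ± 0.171 to 2.60 ± 0.368 FPKM (log2 fold change 0.60). Slc16a1, the carrier MCT1 for lactate, pyruvate and ketone bodies, rose from 35.4 ± 2.65 to 52.8 ± 9.30 FPKM (log2 fold change 0.55). Tigar, a phosphatase that lowers fructose 2,6-bisphosphate, rose from 11.0 ± 0.706 to 15.8 ± 1.10 FPKM (log2 fold change 0.48). Rpia, the ribose 5-phosphate isomerase of the pentose phosphate branch, and Nhlrc1, the ubiquitin ligase malin of glycogen quality control, had log2 fold changes of 0.29 and 0.35 and passed narrowly (limma adjusted p = 0.0447 and 0.04997), in 7 and 5 of 20 alternatives. Gpd1 and Tigar passed in all 21 alternatives, Ppp1r3b in all 20 and Slc16a1 in 20 of 21.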

How the data were processed

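RNA-seq of heart tissue from 5 control and 5 PAMH mice was used, grouped by sample title. The authors deposited 1 table of FPKM for 55335 Ensembl genes, with columns matched by sample description. The submitters' processing notes name build mm10 and, without their roles, the tools HISAT2 2.2.1, HTSeq 0.13.5, Trimmomatic 0.38, FastQC 0.11.9, DESeq2 1.18.1 and R 3.4.1. How the FPKM were computed, with which annotation and which strand setting, is not given in the sources used here. Whole reads were not recoverable: between 24.6% and 34.2% of low values were within 0.05 of a whole multiple of the commonest step, whose size gave the approximate depth.

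Symbols and coordinates came from GENCODE vM21 (55154 identifiers matched, 181 did not). Aldoa has a further identifier (mean 0.0335 FPKM), left out. Genes averaging 1 FPKM or more over the 10 samples entered the test on log2(FPKM + 1), which understates changes of low genes, with limma 3.58.1 in R 4.3.3 (group term, intensity trend, Benjamini-Hochberg, threshold 0.05, 2-sided). Ratios were tested by exact permutation over samples. Copies were found with minimap2 2.31. The fit was tested on simulated data. All members are accounted for: values in every sample are given for members called, not overlapping, at an unadjusted p under 0.05 or among the 5 most abundant. Values of further members were chosen after they were seen. Of the further pathway genes, those called are named. Promoter CpG counts and motifs are descriptions without a test. The members and lists were chosen with earlier results of these data known. Figures were drawn with matplotlib 3.10.9.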

Additional observations from a re-analysis of the deposited data

Results flagged for a closer look

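Among the 70 groups of 5 values (35 members in control and in PAMH hearts), 8 held a sample whose gap to its nearest neighbour exceeded Dixon's 95% critical share of the range, where chance flags about 1 in 20. In 7 of them the high sample was control replicate 2: Slc2a4 at 64.3 FPKM (other controls 50.9 to 54.6), Gpi1 at 54.1 (42.0 to 44.6), Pfkm at 190.5 (157 to 163), Eno3 at 521.2 (408 to 435.6), Pkm at 139 (103 to 111), Pygm at 253 (179 to 192) and Pygb at 138 (109 to 115). The eighth was Gpi1 in PAMH replicate 3, low at 43.3 FPKM where the other PAMH hearts had 57.5 to 61.8. These members share a sample, so the flags are not independent. Without control replicate 2 the member median log2 fold change was 0.16, the count of called members was 4, and 5 ratios were called.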

How the results depend on the processing

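Alternatives covered the pseudocount (0.1), the filter (none, or a mean of 5 FPKM), scaling, a replicate block, sample weights, robust empirical Bayes and omitted samples. The count of all called genes, 584, became 264 without a filter, 239 with the replicate block, 1214 with sample weights and 357 without PAMH replicates 4 and 5. The count of called members, 4, became 1, 1, 7 and 2 in the same order. With single samples left out, 274 to 1126 genes and 2 to 7 members were called, and always 5 ratios. The labels do not say whether replicate numbers pair the samples. Deviations of same-numbered samples correlated at -0.195 to 0.160, which cannot exclude a shared litter or batch. With that replicate block 0 of 10 ratios passed, since 5 pairs cannot give an exact permutation p below 0.0625. The ratios called numbered 5 of 10 with near-identical copies added, an alternative chosen after seeing the data.

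Signs turned only in members and ratios that did not pass. Under median ratio scaling the log2 fold change was -0.0598 for Pgk1, -0.00929 for Ldha, -0.0223 for Ldhb, -0.0676 for Mpc1, -0.0452 for Pygm and -0.00691 for Pygb. With quantile normalization it was -0.00707 for Tpi1, -0.0664 for Pgk1, -0.0138 for Eno1, -0.0124 for Pkm, -0.0276 for Ldha, -0.0720 for Ldhb, -0.0923 for Mpc1, -0.00317 for Gyg, -0.0574 for Pygm, -0.0251 for Pygb and -0.0382 for Taldo1. Pgam2 was at 0.0249 with equal FPKM sums, Mpc1 at -0.0109 with sample weights and Ldha at -0.000942 without PAMH replicates 4 and 5. With single samples left out, Pgam2 ranged from -0.0892 to 0.0390, Mpc1 from -0.0193 to 0.0989 and Pgk1 from -0.00779 to 0.0812. The Pfkfb1/Pfkfb2 ratio difference was -0.0606 with a pseudocount of 0.1 and ranged from -0.0351 to 0.217 with single samples left out. The Ldhb/Ldha difference was 0.0148 without PAMH replicates 4 and 5 and ranged from -0.0595 to 0.0193 with single samples left out. The causes were not tested. Depth is known only approximately.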
